A study of Homo sapiens with 5 samples.

Results

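Methylated regions on chromosomes 12, 13 and 14 of K562, a cell line from a human chronic myeloid leukaemia, were examined together. These chromosomes were chosen by the low share of their regions that was recovered in MT1 and in WT transfected, a mutated and a wild-type culture. The set holds every peak of the 5 deposited peak lists on these chromosomes, apart from 162 peaks that start at 80 to 94 Mb of chromosome 13, merged across libraries where they overlapped by at least 1 bp. It comprised 741 of the 11260 regions of the series: 437 on chromosome 12, 132 on chromosome 13 and 172 on chromosome 14. Recovery in a library was taken over its counted regions, those where at least 2 of the remaining 4 libraries had a peak, as the percentage at which the library itself had one. As this measure chose the chromosomes, its values are a description and were not tested.

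The assay was MeDIP-seq: methylated fragments are enriched with an antibody to 5-methylcytosine and sequenced. The 5 libraries came from 3 K562 lines with mutated DNMT3A (MT1, MT2 and MT4) and from 2 wild-type K562 cultures, WT transfected and WT bulk. The series title gives CRISPR/Cas9 editing as the source of the mutations, and the labels' protocols speak of the mutated and wild-type lines as clones. The DNMT3A change carried by each line, the number of editing events and the construct used in WT transfected are not stated in the labels. Each line or culture was measured in a single library. The names of the wild-type pair set a transfected culture beside a bulk one. With a single library each, differences between cultures and between library preparations cannot be told apart.

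DNMT3A encodes a methyltransferase that places methyl groups on cytosines that carried none before, most often at CpG sites, and DNMT1 copies existing marks after replication. MeDIP recovers stretches of DNA that are both methylated and rich in CpG, so a peak marks a dense cluster of methylated cytosines, and a stretch with few CpG sites may be methylated without forming a peak. Chromosomes 13 and 14 are acrocentric: their short arms hold arrays of ribosomal RNA genes and satellite repeats, to which short reads are hard to assign. K562 is near-triploid, with unequal copy numbers among its chromosomes.

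The lists differed in length: 2842 peaks in MT1, 1426 in MT2, 8399 in MT4, 4470 in WT transfected and 6213 in WT bulk. On chromosomes 12, 13 and 14 they held 156 peaks in MT1, 60 in MT2 and 538 in MT4, against 254 in WT transfected and 394 in WT bulk. These chromosomes thus took 5.49% of the MT1 list (95% Wilson interval 4.71 to 6.39%), 4.21% of the MT2 list (3.28 to 5.38%), 6.41% of the MT4 list (5.90 to 6.95%), 5.68% of the WT transfected list (5.04 to 6.40%) and 6.34% of the WT bulk list (5.76 to 6.97%). The order of these shares is the order of list length, with MT2 lowest and MT4 highest. All intervals here cover counting error only, since neighbouring regions, like PCR copies of a fragment, are not independent. The mean share of the 3 mutated lines was 5.37 ± 1.1% (SD, n = 3), against 6.01 ± 0.47% (SD, n = 2) for the wild-type pair. The mutated lines lay on both sides of the wild-type cultures, so the genotypes overlapped.

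Peaks were sparse on chromosomes 13 and 14, and chromosome 12 was in the middle of the range. Between the first and the last region of each chromosome, chromosome 13 had 1.61 regions per Mb outside the segment left out, chromosome 14 had 1.98 and chromosome 12 had 3.27. Among 23 chromosomes these densities took positions 22, 21 and 13 from the top, and chromosome X was the one below chromosome 13, with 1.13 regions per Mb. No region of chromosome 13 began before position 19183427 (hg19, as all coordinates here) and none of chromosome 14 before position 19500078. The first region of chromosome 12 began at position 82149. The median distance between neighbouring regions was 124 kb on chromosome 12, 222 kb on chromosome 13 and 185 kb on chromosome 14. The widest stretch without a peak in any library was 10.9 Mb on chromosome 13, from position 53776328 to 64651643, followed by 7.29 Mb on chromosome 14, from 38092194 to 45381040. On chromosome 12 it was 5.28 Mb, from 34261922 to 39538898.

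Regions found in all 5 libraries were scarce. Of the 741 regions, 24 (3.24%, 95% Wilson interval 2.19 to 4.77%) had a peak in every library, against 811 of 10519 regions (7.71%) on the rest of the series. The percentage over all regions of the series was 7.42%. Chromosome 13 had 2 such regions, chromosome 14 had 5 and chromosome 12 had 17, which made them the chromosomes with the lowest, second-lowest and third-lowest percentages of the 23 (1.52%, 2.91% and 3.89%). A region of this kind needs a peak in MT1 and in WT transfected. These low percentages therefore follow in part from the choice of the chromosomes and are no independent evidence. Regions held by a single library were about as common as elsewhere, 376 of 741 (50.7%) against 49.8% on the rest. MT4 alone held 208 of them (28.1% of the 741 regions, where it alone held 30.1% of all regions of the series). MT2 alone held 4, 0.54% (0.21 to 1.38%), against 0.622% of all regions. MT1 alone held 24 regions, 3.24% (2.19 to 4.77%), where the percentage over all regions was 1.95%. WT transfected alone held 49, 6.61% (5.04 to 8.64%), where it was 5.19%, and WT bulk alone held 91, 12.3%, where it was 12%.

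Recovery was lower on chromosomes 12, 13 and 14 than elsewhere in all 5 libraries, although in MT4 the interval of the difference included 0. MT1 held 105 of 338 counted regions, 31.1% (95% Wilson interval 26.4 to 36.2%), against 44.2% (2211 of 5001) on the rest of the series. WT transfected held 155 of 315 regions, 49.2% (43.7 to 54.7%), against 64.5% (2928 of 4539) on the rest. The difference was -13.1 percentage points in MT1 (95% Newcombe interval -18.0 to -7.84) and -15.3 in WT transfected (-21.0 to -9.63). Over all regions of the series recovery was 43.4% in MT1 and 63.5% in WT transfected.

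The other libraries did not stand together. MT2 held 52 of 361 counted regions, 14.4% (11.2 to 18.4%), against 23.6% on the rest, a difference of -9.20 points (-12.7 to -5.04). As a ratio to the rest, MT2 had the lowest value of the 5 libraries (0.610), below MT1 (0.703) and WT transfected (0.763). As an odds ratio against the rest, WT transfected was lowest (0.533), followed by MT2 (0.545) and MT1 (0.569). Which library was lowest thus depended on the measure. MT4 held 185 of 222, 83.3% (77.9 to 87.7%), against 83.7%, a difference of -0.37 points (-5.95 to 4.12). WT bulk held 183 of 245 regions, 74.7% (68.9 to 79.7%), against 81.3%, a difference of -6.64 points (-12.6 to -1.46) and a ratio of 0.918. Recovery over all regions was 23% in MT2, 83.7% in MT4 and 81% in WT bulk. On the 3 chromosomes together, low recovery was thus not limited to MT1 and WT transfected: MT2 was low as well, and MT4 was closest to the rest. These intervals describe counting error over regions and are no test. By chromosome, intervals of the difference also included 0 in MT2 on 13 (-12.8 to 7.30) and 14 (-14.6 to 0.90). In WT bulk they did so on 12 (-12.0 to 1.62) and 13 (-20.6 to 5.74). On chromosome 12 in MT2 and chromosome 14 in WT bulk they did not. The mean recovery on these chromosomes of the 3 mutated lines was 42.9 ± 36.0% (SD, n = 3), against 62.0 ± 18.0% (SD, n = 2) for the wild-type pair, and the wild-type values lay within the mutated range.

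**Figure D1:**
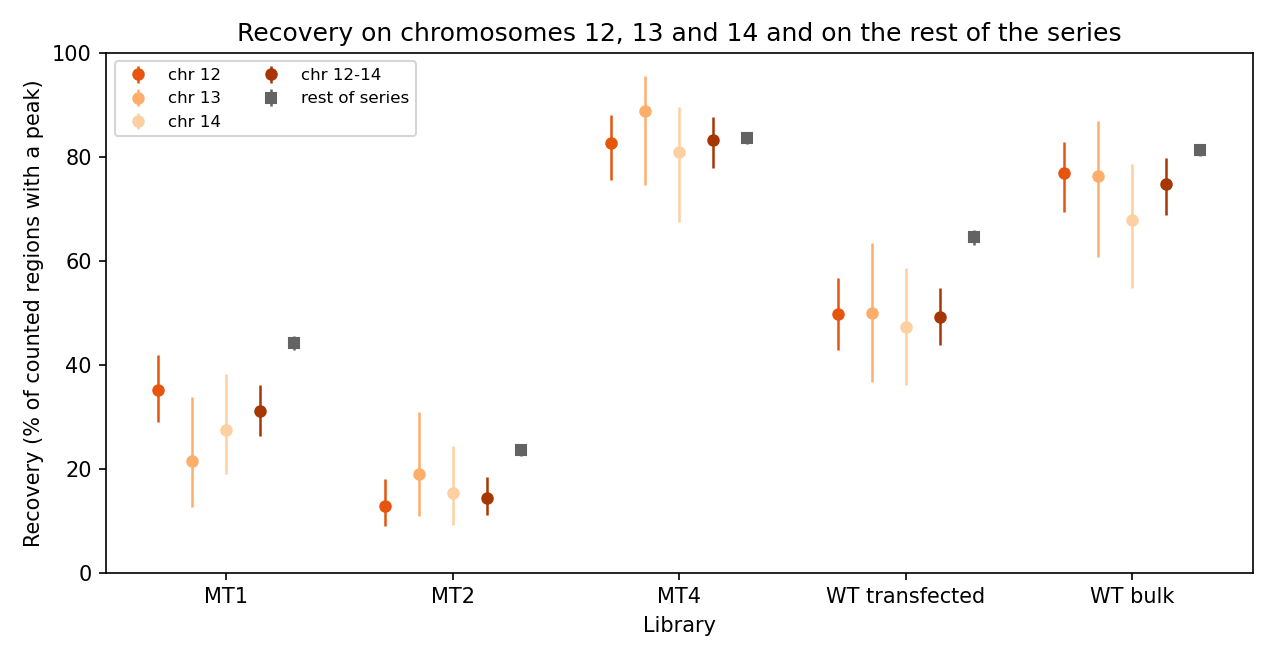
Recovery (y axis, percentage of counted regions with a peak) in each of the 5 libraries (x axis), on chromosomes 12, 13 and 14 singly (orange circles), together (brown circles) and on the rest of the series (grey squares), with 95% Wilson intervals. In MT1, MT2, WT transfected and WT bulk all 3 chromosomes lie below the rest, whereas in MT4 they lie around it (80.9 to 88.9%, against 83.7%).

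The 3 chromosomes were not equally low in every library. In MT1, chromosome 13 had the lowest recovery, 21.4% (12 of 56 regions, 12.7 to 33.8%), followed by chromosome 14 with 27.5% (22 of 80, 18.9 to 38.1%) and chromosome 12 with 35.1% (71 of 202, 28.9 to 42.0%). These intervals overlap. In WT transfected the values were close to one another, 50% on chromosome 13 (25 of 50), 47.2% on chromosome 14 (34 of 72) and 49.7% on chromosome 12 (96 of 193). In MT2 the order was different from that in MT1, with 19.0% on chromosome 13 (11 of 58), 15.3% on chromosome 14 (13 of 85) and 12.8% on chromosome 12 (28 of 218). In WT bulk the lowest was chromosome 14 with 67.9% (38 of 56, 54.8 to 78.6%), and chromosomes 12 and 13 had 76.8% and 76.3%.

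Set against the other 20 chromosomes, these 3 lay at or near the low end in MT1 and WT transfected, the libraries by which they were chosen. Elsewhere, recovery per chromosome ran from 31.4% (chromosome X) to 54.0% (chromosome 4) in MT1, with a median of 43.5%, and from 51.6% (chromosome X) to 76.1% (chromosome 4) in WT transfected, with a median of 63.1%. In WT transfected chromosomes 14, 12 and 13 were the lowest of the 23. In MT1 chromosomes 13 and 14 were the lowest, followed by X and then 12. Chromosome X therefore resembled them in both libraries. On chromosome 4, the highest in both, MT4, which counts towards the regions they are scored on, held 50.5% of its own counted regions. Counted from the lowest of the 23, chromosomes 12, 13 and 14 took positions 1, 9 and 2 in MT2. Their positions were 11, 19 and 6 in MT4, and 8, 6 and 1 in WT bulk.

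**Figure D2:**
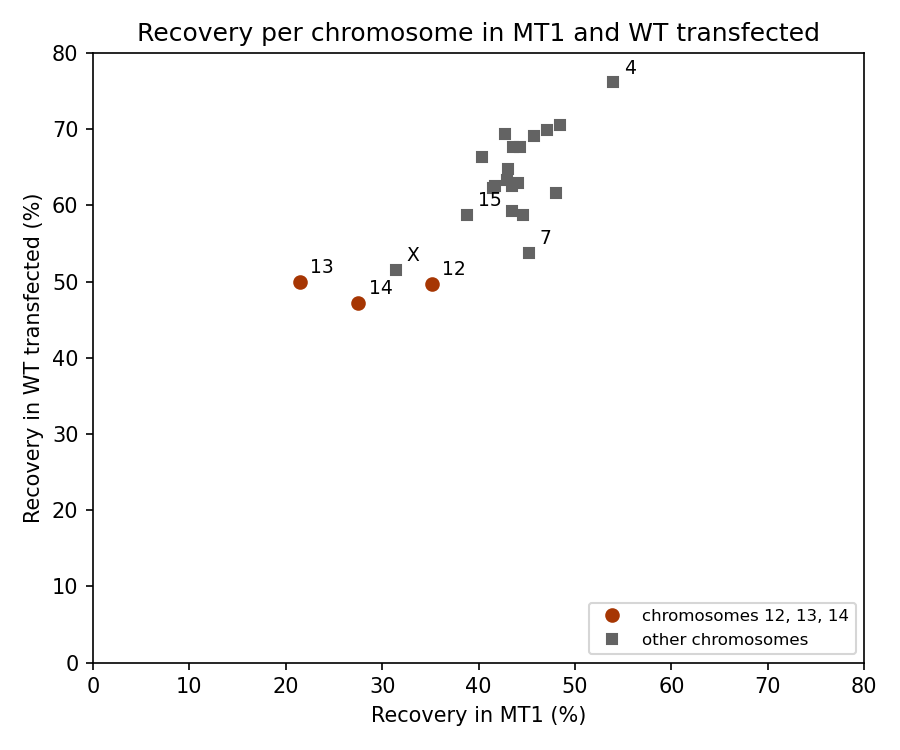
Recovery per chromosome in MT1 (x axis, %) and WT transfected (y axis, %); brown circles are chromosomes 12, 13 and 14 and grey squares the other 20 chromosomes, of which 4, 7, 15 and X are named. Chromosomes 12, 13 and 14 lie at the lower left with X, which had 31.4% in MT1 and 51.6% in WT transfected. Each library counts towards the regions that the other is scored on.

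Whether MT1 and WT transfected missed the same regions was examined where at least 2 of WT bulk, MT2 and MT4 had a peak, so that neither library decided which regions were counted. The chromosomes themselves were chosen by low recovery in both, so the shares that follow are a description of that choice and no independent evidence. There were 282 such regions on chromosomes 12, 13 and 14. MT1 held 95 of them (33.7%, against 49.3% on the rest of the series) and WT transfected 145 (51.4%, against 66.6%). Neither library had a peak at 108 regions, 38.3% (95% Wilson interval 32.8 to 44.1%), against 25.4% on the rest (1051 of 4132), where 26.3% is the percentage over all 4414 regions. Both had one at 66 regions, 23.4% (18.8 to 28.7%), against 41.3%, and 40.2% over all regions. MT1 without WT transfected held 29 (10.3%, against 7.94%, and 8.09% over all), and WT transfected without MT1 held 79 (28.0%, against 25.3%, and 25.5% over all).

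Of the 187 regions that MT1 missed, WT transfected missed 57.8%, against 50.1% on the rest of the series. Of the 137 that WT transfected missed, MT1 missed 78.8%, against 76.2%. The odds ratio between holding a region in MT1 and holding it in WT transfected was 3.11 (95% interval 1.84 to 5.26) on chromosomes 12, 13 and 14 and 5.24 (4.53 to 6.06) on the rest. Both libraries were low on these chromosomes, but the tie between them was not higher there than elsewhere, and the intervals overlap. By chromosome, neither library held 22 of 45 regions on chromosome 13 (48.9%), 28 of 64 on chromosome 14 (43.8%) and 58 of 173 on chromosome 12 (33.5%). On chromosome 13, MT1 held 1 region that WT transfected missed.

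**Figure D3:**
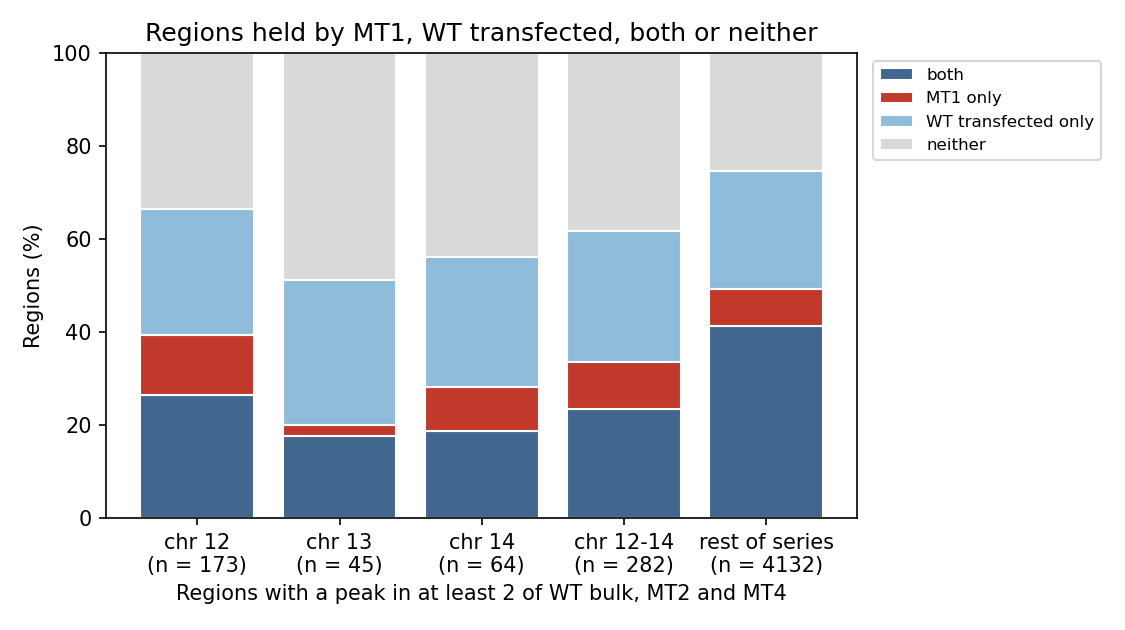
Percentage of regions (y axis) with a peak in both MT1 and WT transfected, in MT1 only, in WT transfected only or in neither, on chromosomes 12, 13 and 14, on all 3 together and on the rest of the series (x axis), where at least 2 of WT bulk, MT2 and MT4 had a peak. The grey part, neither, is 38.3% on the 3 chromosomes together and 25.4% on the rest.

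The regions that both libraries missed scored lower in MT4 and WT bulk than the regions that both held. The authors' deposited score of a peak was turned into its percentile within its own list, so that 100 is the highest score. At the 108 regions missed by both, the median percentile was 51.5 in MT4 and 42.1 in WT bulk. At the 66 regions held by both it was 82.9 in MT4 and 77.2 in WT bulk. Regions held by MT1 or WT transfected alone lay between, at 48.0 and 48.6 in WT bulk. The regions missed by both were also narrower, with a median merged width of 1166 bp, against 1825 bp for those held by both. A merged region spans the peaks of all libraries that hold it, so regions held by more libraries tend to be wider by construction. The same order of scores was seen on the rest of the series, where the WT bulk medians were 38.6 for missed and 81.5 for held by both.

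Pooled over chromosomes 12, 13 and 14, peaks had a lower median score than other peaks of the same list. The median score percentile was 36.1 in MT1, 38.3 in MT2, 47.7 in MT4, 39.4 in WT transfected and 46.0 in WT bulk, where peaks elsewhere had medians of 50.2 to 50.7. In scores, the medians were 107 in MT1 on these chromosomes and 118 elsewhere, and 112 in WT transfected and 122 elsewhere. In MT4 they were 121 and 123. Chromosome 13 singly was not lower in MT1 and MT4. Its median percentile was 51.3 in MT1 (16 peaks), against 50.7 elsewhere, and 52.1 in MT4 (98 peaks), against 50.2 elsewhere. For every other pairing of library and chromosome the median percentile was below that elsewhere. High scores were scarce: 16 of 156 MT1 peaks (10.3%), 6 of 60 MT2 peaks (10.0%), 76 of 538 MT4 peaks (14.1%), 28 of 254 WT transfected peaks (11.02%) and 43 of 394 WT bulk peaks (10.9%) lay above percentile 80 of their list, where a list as a whole has 20% there. This deficit of high scores was present in all 5 libraries, MT4 included. By genotype, the median percentile of the 3 mutated lines was 40.7 ± 6.15 (SD, n = 3), against 42.7 ± 4.67 (SD, n = 2) for the wild-type pair, a difference of -2.03 (exact permutation test, two-sided, p = 0.8, and 0.8 after Benjamini-Hochberg adjustment over 2 tests). The sign turned without WT bulk (1.27) and without MT1 (0.27), at equal list length (3.62) and at a higher score limit (4.03).

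Peaks were narrower too. The median width was 1147 bp in MT1, 1528.5 bp in MT2 and 1002.5 bp in MT4, against 1050 bp in WT transfected and 1121.5 bp in WT bulk. Elsewhere the same lists had medians of 1344.5, 1798.5 and 1092 bp in MT1, MT2 and MT4, and of 1197.5 and 1270 bp in WT transfected and WT bulk, so that all 5 were narrower on chromosomes 12, 13 and 14. The mean of the medians of the 3 mutated lines was 1226 ± 272 bp (SD, n = 3), against 1086 ± 50.6 bp (SD, n = 2) for the wild-type pair, a difference of 140 bp (exact permutation test, two-sided, p = 0.8, adjusted p = 0.8). The mutated values lay on both sides of the wild-type values, and without MT2 the difference was -11 bp. With 10 ways to choose 2 of 5 libraries, neither test can give a p below 0.2, and their p-values measure only the spread between these libraries.

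Score and recovery were then read together. Of the 394 regions with a WT bulk peak on these chromosomes, 10.9% lay above percentile 80 of the WT bulk list, against 20.6% on the rest. Within that top group of scores MT1 held 28 of 43 regions, 65.1% (50.2 to 77.6%), against 80.6% on the rest, a difference of -15.4 points (95% Newcombe interval -30.5 to -2.75). WT transfected held 34 of 43, 79.1% (64.8 to 88.6%), against 91.0%, a difference of -11.9 points (-26.3 to -2.25). MT2 held 15 of 43, 34.9% (22.4 to 49.8%), against 59.6%, a difference of -24.7 points (-37.5 to -9.51), and MT4 held 41 of 43, 95.3%, against 94.6%.

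Between percentiles 60 and 80 of WT bulk, MT1 held 32 of 83 regions (38.6%, against 49.9% on the rest) and WT transfected 42 of 83 (50.6%, against 67.1%), with differences of -11.4 (-21.5 to -0.23) and -16.5 points (-27.4 to -5.65). MT2 held 25.3% there, against 24.1%, with an interval of the difference from -7.30 to 11.8 points. Between percentiles 40 and 60 the differences were -7.87 points in MT1 (-15.5 to 1.74) and -5.68 in WT transfected (-15.6 to 4.70). Between 20 and 40 they were 0.85 in MT1 (-6.49 to 10.9) and -1.15 in WT transfected (-10.9 to 9.99). Up to percentile 20 MT1 held 9.89%, against 10.4%, and WT transfected held 16.5%, against 23.5%, a difference of -7.06 points (-13.8 to 2.20). Below percentile 60 the intervals of MT1 and WT transfected thus included 0, although the values of WT transfected were lower in each range. MT4 was above the rest between percentiles 20 and 40, with 66.7% against 53.1%, a difference of 13.6 points (2.38 to 23.3). In every other range the interval of MT4 included 0. The part of differences in score within these ranges was not tested. Over all regions with a WT bulk peak, the differences were -11.4 points in MT1, -8.20 in MT2, 0.37 in MT4 and -12.8 in WT transfected. Weighting the rest of the series to the same mix of WT bulk scores left -5.93 in MT1, -3.25 in MT2, 3.65 in MT4 and -8.03 in WT transfected.

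**Figure D4:**
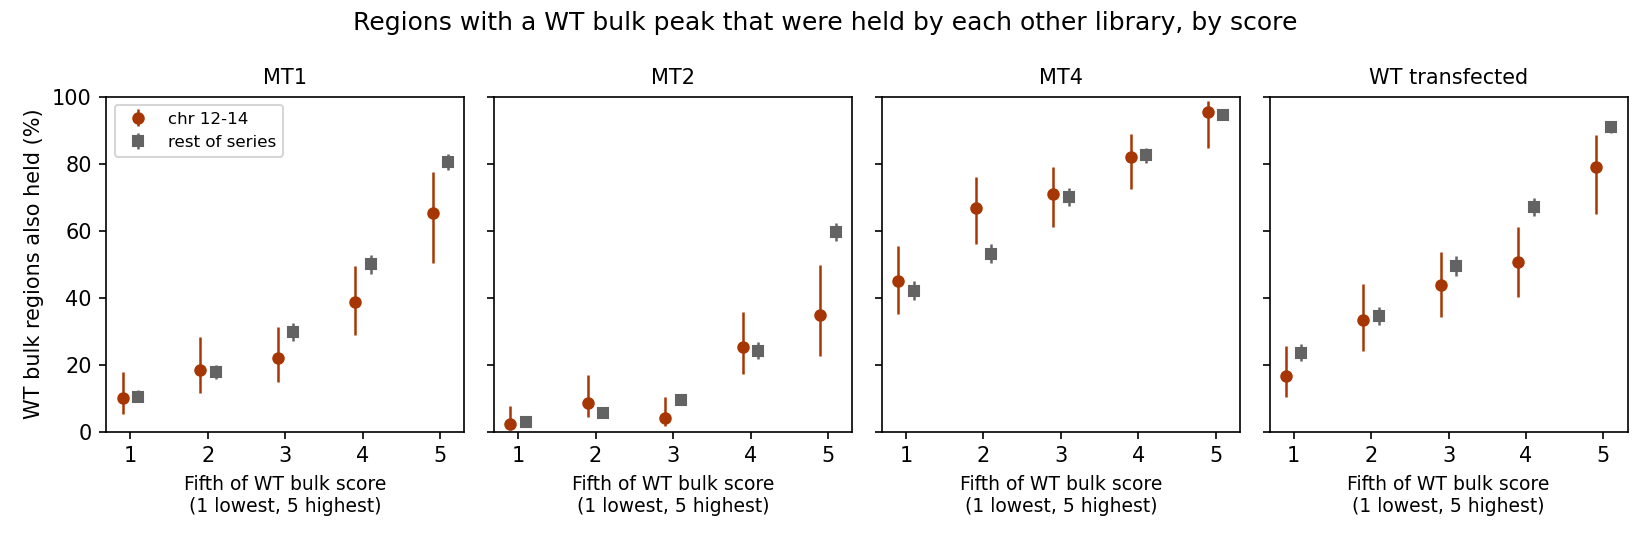
Percentage of regions with a WT bulk peak that were also held by MT1, MT2, MT4 or WT transfected (panels, y axis), in 5 equal ranges of the WT bulk score percentile (x axis, 5 highest), on chromosomes 12, 13 and 14 (brown circles) and on the rest of the series (grey squares), with 95% Wilson intervals. In the top group MT1 is at 65.1% against 80.6%, MT2 at 34.9% against 59.6% and WT transfected at 79.1% against 91.0%, whereas MT4 is at 95.3% against 94.6%.

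The contrast between libraries was not the same with lists of equal length. With every list limited to its 1426 best-scoring peaks, the length of the MT2 list, these chromosomes took 4.35% of the peaks in MT1, 4.21% in MT2 and 4.42% in MT4, against 4.07% in WT transfected and 4.14% in WT bulk. In full lists the same shares ran from 4.21 to 6.41%. Recovery at equal length was 54.5% in MT1 (30 of 55 regions, 41.5 to 67.0%), against 60.9% on the rest, a difference of -6.34 points whose interval includes 0 (-19.6 to 6.34). In MT2 the difference was -16.1 points (-27.8 to -3.32) and in MT4 -2.36 (-15.6 to 10.00). In WT transfected recovery was 50.8%, against 64.2%, a difference of -13.4 points (-25.9 to -1.02), and in WT bulk the difference was -16.5 (-29.6 to -3.56). At equal length, then, MT2 and WT bulk were the lowest and MT1 was not set apart. The intervals of all 5 libraries overlap, and with 55 to 61 counted regions differences between libraries were not detectable. Shortening the lists also changed which regions were counted. MT2 kept its whole list, and its counted regions fell from 361 to 61. In the full lists the ratio of recovery to that of the rest followed the order of list length, 0.610 in MT2, 0.703 in MT1, 0.763 in WT transfected, 0.918 in WT bulk and 0.996 in MT4. Odds ratios against the rest did not follow that order among the 3 shorter lists. They were 0.533 in WT transfected, 0.545 in MT2, 0.569 in MT1, 0.677 in WT bulk and 0.974 in MT4. The part of list length in either order was not tested beyond the comparison at equal length.

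**Figure D5:**
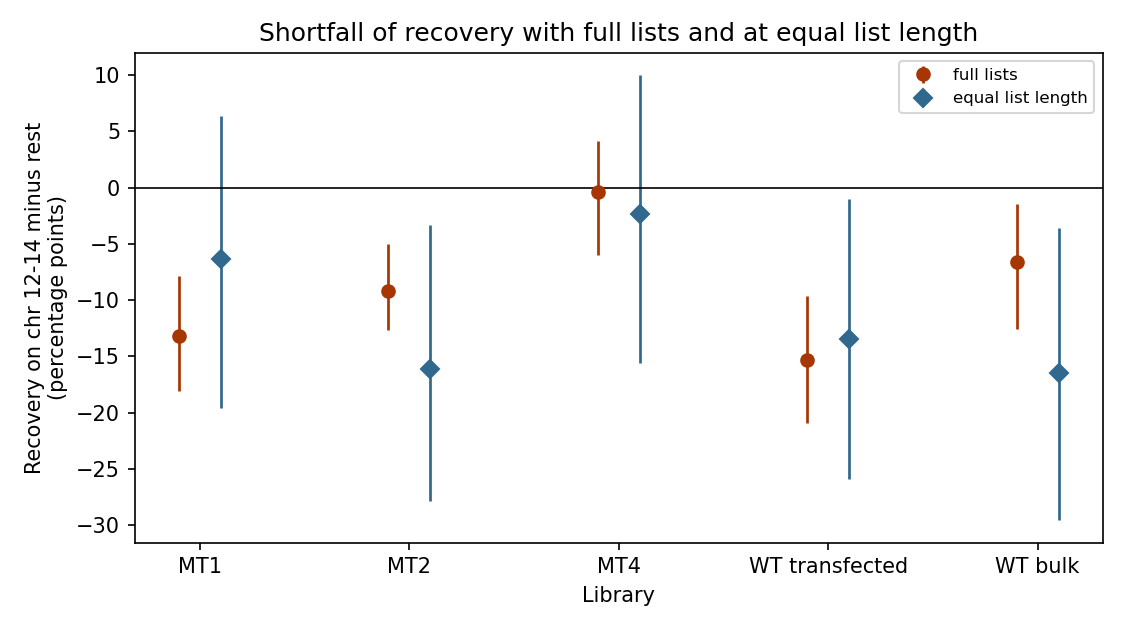
Recovery on chromosomes 12, 13 and 14 minus recovery on the rest of the series (y axis, percentage points) in each library (x axis), with full lists (brown circles) and with lists shortened to their 1426 highest scores (blue diamonds); bars are 95% Newcombe intervals and the line marks no difference. WT bulk is at -16.5 points at equal length and at -6.64 with full lists, and MT1 at -6.34 and -13.1.

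Recovery was then read by position. In bins of 10 Mb with at least 10 counted regions, MT1 was below its recovery on the rest of the series in 15 of 17 bins and WT transfected in 14 of 16. MT2 was below in 15 of 18, MT4 in 2 of 7 and WT bulk in 8 of 9. The MT4 bins all lay on chromosome 12 and those of WT bulk nearly all. The counts of MT4 and WT bulk thus do not cover the same stretches as those of the other libraries. Bins of this size were few on chromosome 13, and for WT transfected they lay at 20 to 30 Mb (4 of 13 regions) and 40 to 50 Mb (4 of 11). Towards its end, in bins with fewer regions, WT transfected held 4 of 5 at 100 to 110 Mb and 5 of 5 at 110 to 120 Mb, where MT1 held 3 of 6 and 0 of 8. The Wilson intervals of WT transfected in these 2 bins were wide, 37.6 to 96.4% and 56.6 to 100%. How far low recovery in WT transfected extended along chromosome 13 was therefore not settled. The lowest bin of MT1 was at 100 to 110 Mb of chromosome 14, where it held 1 of 14 counted regions (7.14%), while MT4 held 5 of 5 and WT transfected 5 of 11. At 30 to 40 Mb of chromosome 14 MT1 held 1 of 13 and WT transfected 5 of 10. The lowest bin of WT transfected was the first 10 Mb of chromosome 12, with 5 of 17 regions (29.4%), where MT1 held 5 of 20 and MT4 also had its lowest value, 7 of 12 (58.3%). The highest bin of WT transfected was at 20 to 30 Mb of chromosome 12, with 8 of 10 regions, and MT1 held 4 of 13 there. The extremes of these libraries thus lay in different places.

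Bins with at least 10 counted regions in all 5 libraries lay on chromosome 12 only. A single one of these bins had recovery above that of the rest in each library. At 90 to 100 Mb of chromosome 12, MT1 held 6 of 12 counted regions, MT2 6 of 12 (50%, the highest value of MT2) and MT4 10 of 10, against 8 of 12 in WT transfected and 10 of 10 in WT bulk. The longest runs of counted regions without an MT1 peak were 13 regions on chromosome 14, from position 78213337 to 101924885 (23.7 Mb), and 13 on chromosome 12, from 6824586 to 22846827 (16.0 Mb). MT4 held 13 of 13 in the first run and 11 of 13 in the second. On chromosome 13 the longest MT1 run was 9 regions from 42030621 to 49593874, and MT4 held 9 of 9 there. The longest WT transfected runs were shorter, 7 regions on chromosome 12 (65217925 to 66569363) and 5 on each of chromosomes 13 and 14. Those of MT2 were longer than those of MT1 on every chromosome. They had 24 regions on chromosome 12 (247245 to 22846827), 10 on chromosome 13 and 15 on chromosome 14.

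The 24 regions held by all 5 libraries had median score percentiles of 64.6 in MT1, 60.2 in MT2, 88.9 in MT4, 75.6 in WT transfected and 80.5 in WT bulk. The 811 such regions elsewhere had 79.6 in MT1, 62.6 in MT2, 91.9 in MT4, 85.7 in WT transfected and 90.1 in WT bulk. The medians were thus lower on chromosomes 12, 13 and 14 by the most in MT1. The strongest of the 24 by mean percentile spanned 62584352 to 62586415 of chromosome 12 and had scores of 233 in MT1, 118 in MT2, 286 in MT4, 302 in WT transfected and 374 in WT bulk. The second, also on chromosome 12 (94542237 to 94544504), scored 196 in MT1, 125 in MT2, 272 in MT4, 232 in WT transfected and 214 in WT bulk. The next ones lay on the same chromosome, from 92799248 to 92801380 and from 107712198 to 107714275, and the last of the top 5 on chromosome 14 from 61746332 to 61748344. Of these 5 regions, 4 lie on chromosome 12, and MT2 ranked the first 2 at percentiles 60.7 and 68.3, below every other library.

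Regions held by WT bulk, MT2 and MT4 and missing from both MT1 and WT transfected numbered 9 (1.21%, 0.64 to 2.29%), where the percentage over all regions of the series was 0.782%. Of these, 6 lay on chromosome 13, 2 on chromosome 12 and 1 on chromosome 14. The first by mean percentile (66.4) spanned 20715872 to 20717313 of chromosome 13 and scored 121 in MT2, 135 in MT4 and 164 in WT bulk. The second spanned 42145398 to 42146796 of chromosome 13, with 104 in MT2, 175 in MT4 and 159 in WT bulk. The next were on chromosome 13 (44947189 to 44948681 and 51417048 to 51418438) and on chromosome 14 (20974038 to 20975469), with mean percentiles of 51.6, 50.02 and 42.2. None of these 5 reached percentile 80 of the MT2 or WT bulk list. A peak in MT2, the shortest list, is required for this class: it had 106 regions without MT2 and 17 without WT transfected. The class is also defined by absence from MT1 and WT transfected, so its percentage follows in part from the choice of the chromosomes.

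WT bulk and MT4, the longest lists, alone shared 97 regions (13.1%, 10.9 to 15.7%), where the percentage over all regions was 9.02%. Absence from MT1 and WT transfected is part of this class too, so the choice of the chromosomes raises its percentage. The strongest spanned 105707109 to 105708673 of chromosome 14, with a score of 219 in MT4 and 200 in WT bulk, at percentiles 90.2 and 86.8. It was followed by regions on chromosome 12 from 65671729 to 65673403 (207 in MT4 and 183 in WT bulk) and from 70003568 to 70004939 (212 in MT4 and 161 in WT bulk). The remaining ones of the top 5 were on chromosome 14, from 38060468 to 38062496 and from 103739387 to 103741121. These 5 scored above the median of both lists and had no peak in MT1, MT2 or WT transfected. The lists give no score where a peak is absent. A missing peak shows only that none was listed, and less methylation and a less sensitive library cannot be told apart.

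The reverse class was small. MT1 and WT transfected alone shared 4 regions (0.54%, 0.21 to 1.38%), where the percentage over all regions was 0.426%. The first spanned 127940336 to 127941135 of chromosome 12 and scored 122 in MT1 and 168 in WT transfected. The others were on chromosome 14 (52781149 to 52782074 and 64726796 to 64727709) and on chromosome 12 (133217845 to 133220755), with scores of 93.2 to 142. Low recovery in MT1 and WT transfected was not accompanied by a larger group of regions that only they held.

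The genotype classes were close to the background of the series. No region was held by MT1, MT2 and MT4 and missing from both wild-type libraries, where 8 of 11260 regions (0.071%) were so overall. Taking 3 counts as the limit that a count of 0 allows, 0 of 741 allows a percentage of up to 0.405%. Regions held by WT transfected and WT bulk alone numbered 15 (2.02%, 1.23 to 3.31%), where the percentage over all regions was 2.74%. The first by mean percentile spanned 49688551 to 49690528 of chromosome 12 and scored 145 in WT transfected and 141 in WT bulk. It was followed by regions on chromosome 12 (7904389 to 7905322), on chromosome 14 (75077137 to 75078779), on chromosome 12 (6299860 to 6300811) and on chromosome 13 (109792341 to 109793352), with mean percentiles of 64.2 down to 50.2. Both counts moved with the libraries required. Without WT bulk, WT transfected or MT4 the wild-type class had 64, 106 or 84 regions, and without WT bulk, WT transfected, MT1 or MT2 the mutated class had 3, 1, 2 or 15.

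The 3 widest regions lay outside the classes above. On chromosome 13 a region of 4262 bp, from 108517438 to 108521699, scored 116 in MT1, 268 in MT4, 144 in WT transfected and 216 in WT bulk, and had no peak in MT2. A second on chromosome 13, of 4249 bp from 110434250 to 110438498, scored 101 in MT2, 177 in MT4, 94.9 in WT transfected and 151 in WT bulk, and had none in MT1. On chromosome 12 a region of 4233 bp, from 89744340 to 89748572, scored 130 in MT1, 132 in MT4, 103 in WT transfected and 182 in WT bulk, with none in MT2. Each of the 3 was held by 4 libraries.

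Where MT1 or WT transfected did hold a region, its rank against WT bulk was much as elsewhere. At the 105 regions held by both MT1 and WT bulk, the median difference of MT1 minus WT bulk was -12.5 percentile points (quartiles -27.3 to 2.30), and -11.2 at 2207 regions of the rest. At the 160 regions held by WT transfected and WT bulk, the median difference of WT transfected minus WT bulk was -5.94 points (-28.3 to 9.87), and -3.61 on the rest. For MT2 it was -20.9 points on both, and for MT4 it was 6.10 on these chromosomes and 4.10 on the rest. The quartiles of each library overlap widely between these chromosomes and the rest.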

How the data were processed

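MeDIP-seq libraries of 5 K562 cultures were analysed from 1 peak list each. Paired reads of 100 to 125 bp, with about 40 M reads per sample as the target, are given per the labels' protocols. The submitters' processing notes name the build hg19 and the tools Bowtie 1.1.1 and edgeR, without their roles. MACS stands in the peak names of the deposited files, and its version, its threshold and any input control are not stated. Starts and ends are in bp, and the score deposited by the authors, of unstated scale, is never under 90. Scores served to rank and filter peaks inside each list. Depth per library is unknown.

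Peaks overlapping by 1 bp were merged, and shares, Wilson and Newcombe 95% intervals and exact permutation tests were computed (pandas 2.3.3, numpy 2.4.6 and scipy 1.17.1 under Python 3.11.15; figures with matplotlib 3.10.9). Starts are counted from 1. Merging and recovery were tested on simulated lists. The gene tables held here are on GRCh38, so no gene was assigned to a region.

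The chromosomes, classes and tests were chosen with earlier results of these data known. Named regions are the 5 with the highest mean score percentile in each class and the 3 widest. Alternatives were other score limits, list lengths, overlaps, sets of counted regions, weightings of the rest and each library left out.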

Additional observations from a re-analysis of the deposited data

How the results depend on the processing

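No paired analysis was possible because each line was measured in 1 library and no label ties a mutated line to a wild-type one. Differences in recovery, in percentage points of chromosomes 12, 13 and 14 minus the rest, kept their sign in all 21 alternatives in MT1 (-19.2 to -5.68) and WT transfected (-21.1 to -7.09), all 20 in MT2 (-16.1 to -3.25) and all 18 in WT bulk (-16.5 to -1.87), and ran from -5.18 to 3.65 in MT4. Without 1 library they were -15.8 to -13.5 in MT1, -11.9 to -9.49 in MT2, -5.18 to 0.14 in MT4, -17.6 to -15.2 in WT transfected and -8.21 to -5.47 in WT bulk. At equal list length MT1, MT2 and WT bulk had -6.34, -16.1 and -16.5. Counting regions in at least 1 other library gave -5.68, -4.83 and -7.09 in MT1, MT2 and WT transfected. Weighting the rest by the number of other libraries with a peak gave -6.54, -3.37 and -9.06, and weighting by score in the other libraries gave -4.35 in MT2. At or above a score of 121.64, the median of all peaks, WT transfected had -21.1. Added after seeing the data, counting regions with a WT bulk peak gave -11.4 in MT1, -8.20 in MT2 and -12.8 in WT transfected, and weighting the rest by WT bulk score over these regions gave -5.93, -3.25 and -8.03; leaving out chromosome 12 gave -19.2 in MT1. In each of these settings the cause was not tested.

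Regions missing from MT1 and WT transfected only numbered 1 at the higher score limit, 0 at equal length and 9 to 106 without 1 library. Regions in the wild-type class numbered 7, 1 and 15 to 106, and in the mutated class 1 at equal length and 0 to 15 without 1 library. Fewer libraries to satisfy raise such counts by construction. The genotype difference in median score percentile reversed at the higher score limit (4.03), at equal length (3.62), without WT bulk (1.27) and without MT1 (0.27), and ranged from -5.52 to 1.27 without 1 library. For median width, leaving out 1 library gave -11 to 252 bp, with the sign turned when MT2 was left out. Depth per library is unknown, so an absent peak cannot be called unmethylated.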
